A study of Mus musculus with 32 samples.

Results

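Cells detect foreign RNA with a small set of receptors, and 7 genes of this system were followed here among the 23035 genes of the footprint tables: Ddx58, Ifih1, Dhx58, Ddx60, Tlr3, Mavs and Myd88. They were taken by name for their known roles, by a rule that uses no measured value, although earlier results of these data were known, and each symbol was matched to its Ensembl identifier. The data are Ribo-Seq of neural stem cells (NSCs), in which the fragments of mRNA covered by ribosomes (footprints) and the total RNA of the same lysates are sequenced in parallel. NSCs of the ventricular-subventricular zone of male C57BL/6 mice aged 8 to 12 weeks were expanded ex vivo and received vehicle or interferon-β (IFN-β), for either 2 h or 14 h. In all, each of the 4 groups held 4 cultures from different mice, each with 1 footprint and 1 total RNA library, which makes 32 libraries. All groups were wild type, all were grown with growth factors and all received cycloheximide, which halts ribosomes, for the last minutes before lysis. The cultures at 2 h carry the replicate numbers 2, 3, 5 and 6 and those at 14 h the numbers 1 to 4, and the vehicle cultures of each time were compared with the IFN-β cultures of that time.

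RIG-I, the product of Ddx58, and MDA5, the product of Ifih1, are cytosolic helicases that bind double-stranded or uncapped RNA and then dock on MAVS, an adaptor in the outer membrane of mitochondria. The docking starts kinases that switch on interferon genes. LGP2, the product of Dhx58, is a related helicase without the signalling domain and tunes the other two, and DDX60 is a helicase induced by interferon that has been described as a cofactor of RIG-I. TLR3 senses double-stranded RNA from the endosome and signals through TRIF, the product of Ticam1. MyD88 serves the other Toll-like receptors and the receptors of the IL-1 family, and neither the RIG-I-like receptors nor TLR3 need it. The set therefore joins a cytosolic arm with an endosomal receptor and an adaptor of its relatives. Many of these genes are themselves targets of the interferon receptor, through promoter elements bound by interferon-activated transcription factors.

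Such an element, the core of the interferon-stimulated response element, was searched as TTTCNNTTTC on both strands in 300 bases of promoter, from 250 before to 50 after the RefSeq start (build GRCm38.p6). It is printed here because 6 of the 7 genes changed with IFN-β while Mavs did not pass the test, as described in the paragraphs that follow. A window was at hand for 6 genes and not for Dhx58. Windows of 4 of these 6 genes held the element, beside 3.44% of 32851 windows of all genes. A match describes letters and not binding, and the lack of one covers this window alone. In the sequences the capitals mark the matches, and each runs 5′ to 3′ on the strand of its gene. Ddx60 had 2 matches, which began 53 and 19 bases before the start, and both read as the reverse complement. The match of Myd88 began 40 bases before the start. In Ddx58 and Ifih1 the match lay just past the start, at base 3 and base 33 of the transcript, so only 30 bases around it are shown. For Ddx60, Myd88, Tlr3 and Mavs the 80 bases before the RefSeq start are shown, and those of Tlr3 and Mavs held none. The windows of Tlr3 and Myd88, both on the minus strand, reach to chr8:45410630 and chr9:119340268. The gene bounds given below reach further, to 45411080 and 119341411, so the outer ends of these 2 genes were not searched.
Ddx58, chr4:40239804-40239833, minus strand: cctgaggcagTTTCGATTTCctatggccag
Ifih1, chr2:62646206-62646235, minus strand: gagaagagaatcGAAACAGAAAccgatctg
Ddx60, chr8:61928007-61928086, plus strand: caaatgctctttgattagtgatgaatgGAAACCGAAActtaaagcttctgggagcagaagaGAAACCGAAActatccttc
Myd88, chr9:119340019-119340098, minus strand: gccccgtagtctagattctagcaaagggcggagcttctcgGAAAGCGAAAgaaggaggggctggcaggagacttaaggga
Tlr3, chr8:45410381-45410460, minus strand: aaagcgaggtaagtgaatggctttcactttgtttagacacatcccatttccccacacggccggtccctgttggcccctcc
Mavs, chr2:131233983-131234062, plus strand: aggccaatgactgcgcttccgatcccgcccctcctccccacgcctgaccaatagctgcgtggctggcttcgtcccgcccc
A gamma-activated site, searched as TTCNNNGAA (a palindrome, so the same on both strands), was in 8.30% of the windows and, of the 6 genes, in the window of Myd88, where it overlaps the printed match.

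Footprint libraries held 2956297 to 10505108 counts and total RNA libraries 1370008 to 7877753. Levels are given as CPM, the counts scaled to a common library size with TMM over the 16 footprint libraries. CPM are relative, so a change common to all genes does not show in them. Changes are given as log2 fold changes (IFN-β over vehicle) of edgeR's quasi-likelihood test, with a standard error (SE) and a p adjusted over all genes tested. The SE was derived from the fold change and the F statistic of the test, and is too small where a large change meets few counts. The summed footprints of 9 neural stem cell markers, such as Nes and Sox9, were 11432 to 18246 CPM in every library, and none of the 9 was at 0 in any group. The 10 markers of microglia and macrophages, cells that also carry these sensors, summed to 11.9 to 45.4 CPM. Of these, Cx3cr1, C1qa, Fcrls and Trem2 were at 0 in every group, while at 14 h P2ry12 rose by 1.62 and Itgam fell by 0.75 on the log2 scale. Marker sums were 3.91 to 24.7 CPM for endothelium, 0 to 2.24 for oligodendrocytes, 48.2 to 116 for neurons and 16.4 to 58.1 for ependyma, where Foxj1 rose by 1.24 at 14 h. The part of these cells in the results was not tested. In bulk libraries a change in the number of cells of a type and a change in the RNA of each cell cannot be told apart.

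With IFN-β at 2 h, footprints of 6 of the 7 genes rose, beside 5.25% of 12104 genes called higher and 2.01% called lower. At 14 h the same 6 rose, beside 26.2% of 12113 genes higher and 26.3% lower. Mavs was called at neither time. In each of the 6, all 4 IFN-β libraries lay above all 4 vehicle libraries at both times, as did those of 7.68% of all tested genes at 2 h and 23.4% at 14 h. Dhx58 and Ddx60 had fewer than 10 counts in every vehicle library and entered the test through the IFN-β libraries alone. Ifih1 at 14 h had 10 or more counts in only 1 vehicle library, so it too passed only with the IFN-β libraries. The count of 6 therefore describes the genes and is no support. The plot of footprints by library shows the values.

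**Figure D1:**
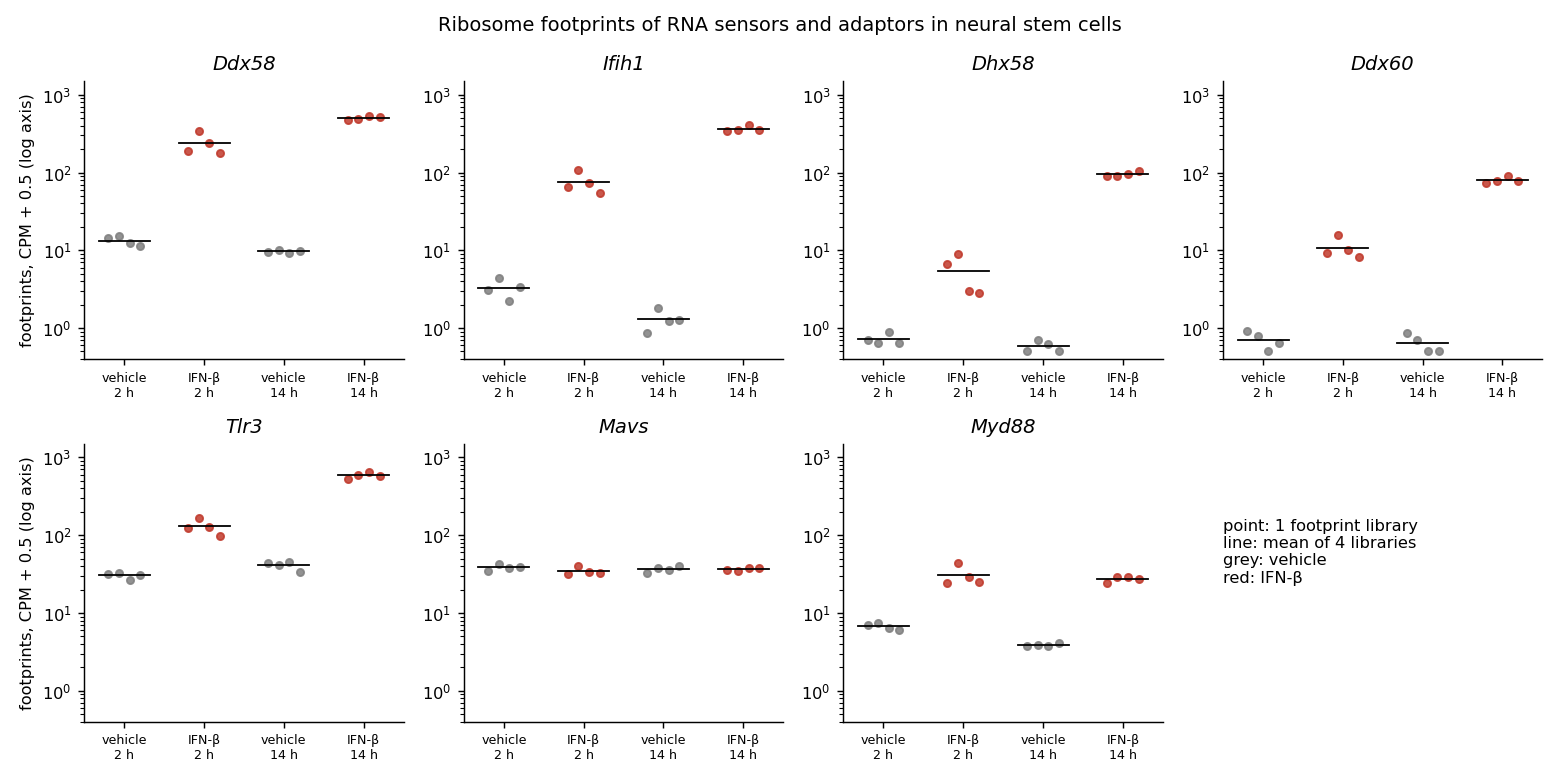
Footprints of the 7 genes in each of the 16 libraries, as CPM plus 0.5 on a log axis, with vehicle in grey, IFN-β in red and the mean of 4 libraries as a line. The IFN-β points lie above the vehicle points in every panel except Mavs, where the group means lie between 34.1 and 38.1 CPM.

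Ddx58 (RIG-I, ENSMUSG00000040296) lies on the minus strand at chr4:40203773-40239828 in mm10. Its footprint counts at 2 h were 132, 105, 89 and 78 with vehicle and 1502, 1667, 1709 and 1067 with IFN-β in replicates 2, 3, 5 and 6. At 14 h they were 51, 97, 70 and 97 with vehicle and 1391, 3411, 3634 and 4794 with IFN-β in replicates 1 to 4. The low count of replicate 1 with IFN-β at 14 h goes with the lowest total of all footprint libraries, and in CPM this replicate (467) was near the others (488 to 538). The level went from 12.8 ± 1.85 to 236 ± 74.3 CPM (SD, n = 4) at 2 h, a log2 fold change of 4.20 (SE 0.24, adjusted p = 5.19e-06). At 14 h it went from 9.17 ± 0.41 to 502 ± 31.0 CPM, a change of 5.76 (SE 0.08, adjusted p = 9.39e-15). RIG-I thus had a measurable level in untreated NSCs, about 18.4-fold below that with IFN-β at 2 h and 54.3-fold below at 14 h.

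Ifih1 (MDA5, ENSMUSG00000026896, chr2:62595798-62646255, minus strand) started from a lower level. Its counts at 2 h were 24, 28, 13 and 21 with vehicle and 515, 519, 516 and 326 with IFN-β. At 14 h the vehicle libraries held 2, 13, 6 and 8 counts and the IFN-β libraries 1005, 2470, 2787 and 3306. No IFN-β library came near a vehicle library at either time. The log2 fold change was 4.75 (SE 0.28, adjusted p = 7.65e-06) at 2 h and 8.72 (SE 0.15, adjusted p = 4.11e-14) at 14 h.

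Dhx58 (LGP2, ENSMUSG00000017830, chr11:100694884-100704271, minus strand) was close to absent from the vehicle libraries, with 2, 1, 3 and 1 counts at 2 h and 0, 2, 1 and 0 at 14 h. With IFN-β it had 49, 41, 18 and 14 counts at 2 h and 265, 631, 650 and 978 at 14 h. Replicates 2 and 3 were the higher of the 2 h group, and all 4 were above vehicle. The change at 2 h was 4.32 (SE 0.62, adjusted p = 0.00201). At 14 h the vehicle group held 3 counts in all, and the ratio of summed counts, scaled for library size, was 1105 with a 95% counting interval of 378 to 5364 (edgeR adjusted p = 2.96e-13). This interval covers counting error alone.

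Ddx60 (ENSMUSG00000037921, chr8:61928087-62038244, plus strand) behaved in the same range. Vehicle libraries held 4, 2, 0 and 1 counts at 2 h and 2, 2, 0 and 0 at 14 h. IFN-β libraries held 69, 74, 69 and 47 at 2 h and 214, 536, 603 and 725 at 14 h. The change was 5.43 (SE 0.48, adjusted p = 8.72e-05) at 2 h and 9.21 (SE 0.24, adjusted p = 2.36e-12) at 14 h, the latter against 4 vehicle counts in all.

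Tlr3 (ENSMUSG00000031639, chr8:45395665-45411080, minus strand), the endosomal receptor, was well covered without interferon. Its counts at 2 h were 298, 227, 195 and 222 with vehicle and 986, 816, 916 and 591 with IFN-β. At 14 h they were 244, 406, 360 and 351 with vehicle and 1555, 4177, 4331 and 5435 with IFN-β. The lowest IFN-β library at 2 h stood at 98.0 CPM and the highest vehicle library at 31.7 CPM. Footprints rose by 2.11 (SE 0.16, adjusted p = 3.3e-05) at 2 h and by 3.86 (SE 0.10, adjusted p = 1.76e-12) at 14 h. Tlr3 reached 2.00 counts per coding base in its fullest library, the highest of the 7 genes. The authors removed duplicate reads, a step that can lower counts where coverage is dense.

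Mavs (ENSMUSG00000037523, chr2:131234063-131248025, plus strand), the adaptor on which RIG-I and MDA5 converge, stood apart. Its counts at 2 h were 321, 301, 285 and 279 with vehicle and 245, 196, 238 and 194 with IFN-β, which is 34.1 to 42.1 and 30.9 to 40.0 CPM. At 14 h they were 177, 373, 288 and 421 with vehicle and 104, 239, 250 and 353 with IFN-β, which is 31.7 to 40.0 and 34.2 to 37.9 CPM. The groups overlapped at both times, although at 2 h each IFN-β culture lay below the vehicle culture of the same number. The log2 fold change was -0.16 (SE 0.11, 95% interval -0.41 to 0.09, adjusted p = 0.566, or 0.115 with the replicate number as a block) at 2 h and -0.02 (SE 0.08, 95% interval -0.19 to 0.16, adjusted p = 0.884) at 14 h. The intervals leave room for a fall to 0.755-fold at 2 h and for a rise to 1.12-fold at 14 h, and not for changes of the size seen in the 6 other genes.

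Myd88 (ENSMUSG00000032508, chr9:119335934-119341411, minus strand) held counts of 62, 49, 45 and 40 with vehicle and 189, 210, 203 and 147 with IFN-β at 2 h. At 14 h it held 18, 34, 26 and 38 with vehicle and 70, 199, 194 and 254 with IFN-β. The change was 2.25 (SE 0.21, adjusted p = 1.42e-04) at 2 h and 3.00 (SE 0.12, adjusted p = 2.06e-10) at 14 h. With IFN-β the level was 29.9 ± 8.91 CPM at 2 h and 27.0 ± 2.42 CPM at 14 h, while the vehicle level was 6.23 ± 0.61 and 3.36 ± 0.18 CPM. The larger fold at 14 h thus came with a lower vehicle level and not with a higher level under IFN-β.

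**Figure D2:**
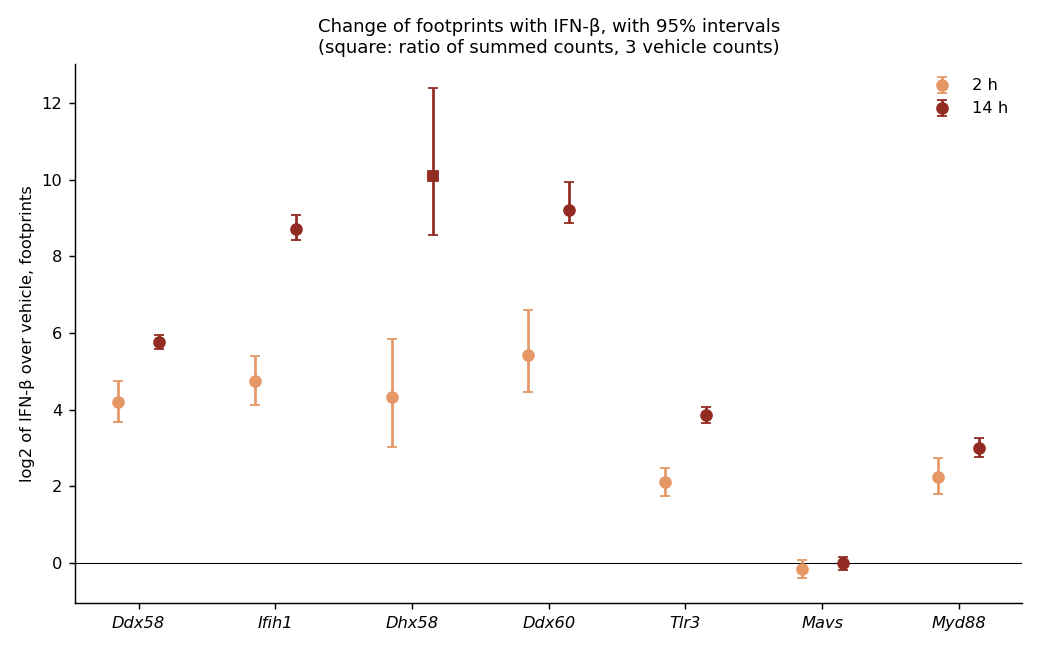
Log2 of footprints with IFN-β over vehicle for each gene at 2 h and 14 h, with 95% intervals of edgeR, or of the summed counts for Dhx58 at 14 h (square). The edgeR intervals are too narrow where a large change meets few vehicle counts. Every gene but Mavs lies above 0 at both times, from 2.11 for Tlr3 at 2 h upward.

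Replicate 3 with IFN-β at 2 h had the highest CPM of its group for each of the 7 genes, for example 340 CPM of Ddx58 beside 177 to 238 CPM in the other libraries. It was also the shallowest library of its group, with 4956144 counts, and the vehicle culture of the same number was the highest of its group for Ddx58, Ifih1, Tlr3, Mavs and Myd88. Without it, or without any other footprint library in turn, the 6 genes were still called at both times.

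The difference between the responses at the 2 times was tested as an interaction over the 16 footprint libraries. The response of 6 genes was larger at 14 h, beside 15.4% of 12508 genes with a higher and 15.5% with a lower response. Dhx58 and Ddx60 entered this test too through the IFN-β libraries alone, so the count of 6 describes the genes and is no support. The response of Ifih1 was larger by 3.99 on the log2 scale (SE 0.43, adjusted p = 5.33e-06), against 29 vehicle counts in all at 14 h. Tlr3 followed with 1.75 (SE 0.19, adjusted p = 5.85e-06) and Ddx58 with 1.57 (SE 0.25, adjusted p = 0.000191). Dhx58 gave 5.53 (SE 1.39, adjusted p = 0.00567), a fitted value that rests on 3 vehicle counts at 14 h. Ddx60 gave 3.80 (SE 1.10, adjusted p = 0.0141), and the call was lost without vehicle replicate 2 at 2 h, the library with 4 of the 7 vehicle counts (3.16, adjusted p = 0.108). Myd88 gave 0.75 (SE 0.25, adjusted p = 0.0303), and its call was lost when any of 11 libraries was left out, with an adjusted p of 0.0524 to 0.0582. These were replicates 2, 5 and 6 with IFN-β and 2 and 3 with vehicle at 2 h, and replicates 2, 3 and 4 with IFN-β and 1, 2 and 3 with vehicle at 14 h. For Mavs the difference was 0.16 (95% interval -0.13 to 0.44, adjusted p = 0.398). The tables of the 2 times come from separate cultures, so that time and the set of cultures cannot be told apart in these differences.

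Levels can be compared between genes only per coding length, so CPM were divided by the length of the coding sequence in kilobases. With vehicle, Mavs was the most occupied at both times, with 23.8 ± 2.04 CPM per kb at 2 h and 22.6 ± 2.15 at 14 h. Tlr3 came next with 11.0 ± 1.03 and 14.9 ± 1.88, then Myd88 with 6.59 ± 0.64 and 3.56 ± 0.19 and Ddx58 with 4.61 ± 0.67 and 3.30 ± 0.15. Ifih1 lay below these with 0.90 ± 0.30 and 0.26 ± 0.13. Dhx58 and Ddx60 were lowest, at 0.109 and 0.0409 at 2 h and at 0.0397 and 0.0271 at 14 h, and their ranges overlapped. Among the neighbours above them, only Myd88 and Ddx58 overlapped, at 14 h.

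With IFN-β at 2 h Ddx58 led with 85.1 ± 26.7 CPM per kb, above Tlr3 with 47.6 ± 10.4, and their ranges did not overlap. Myd88 (31.6 ± 9.42), Ifih1 (24.2 ± 7.28) and Mavs (21.3 ± 2.54) followed, and from Tlr3 down to Mavs the ranges of neighbours overlapped. Dhx58 (2.38 ± 1.45) and Ddx60 (2.00 ± 0.64) overlapped as well. At 14 h Tlr3 was highest with 216 ± 18.2, with a range that overlapped that of Ddx58 at 181 ± 11.2, although Tlr3 was above Ddx58 in all 4 libraries. Then came Ifih1 with 119 ± 10.8, Dhx58 with 46.8 ± 3.57, Myd88 with 28.6 ± 2.56, Mavs with 22.5 ± 1.08 and Ddx60 with 15.3 ± 1.44, with no overlap between neighbours. Mavs thus passed from the first place with vehicle to the fifth at 2 h and the sixth at 14 h. Its CPM per kb stayed nearly the same. The paper reports a fall of global protein synthesis after long exposure to IFN-β, which CPM do not show. The absolute translation of Mavs was not tested.

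**Figure D3:**
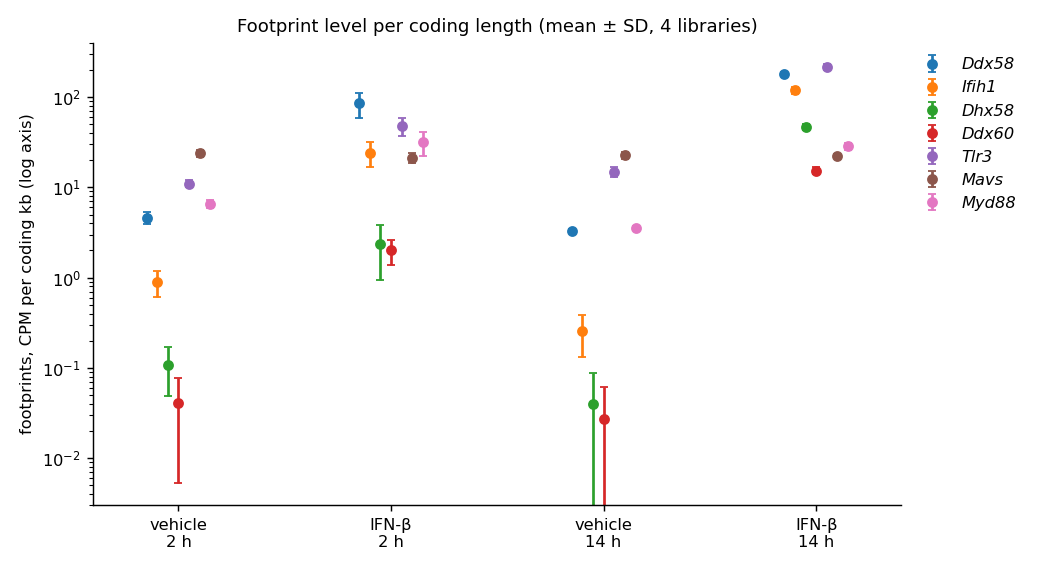
Footprint level per coding length (CPM per kb, log axis) of the 7 genes in the 4 groups, as mean ± SD of 4 libraries. Lower bars that reach 0 run off the axis. Mavs stays between 21.3 and 23.8 CPM per kb while the other genes rise past or toward it.

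The make-up of the RIG-I-like receptors changed as well. Within the summed footprints per kb of Ddx58, Ifih1 and Dhx58, the share of Ddx58 was 82.1% with vehicle and 76.2% with IFN-β at 2 h, and 92.0% and 52.2% at 14 h. That of Ifih1 was 15.9% and 21.7% at 2 h and 6.99% and 34.2% at 14 h. Dhx58 held 2.02% and 2.09% at 2 h (two-sided exact permutation p = 0.943) and 1.06% and 13.5% at 14 h. For the 5 other contrasts of shares the exact permutation p was 0.0286, the smallest that 4 against 4 unpaired libraries can give. The shares of a library add up to the whole, so the contrasts at 1 time are not separate results. The p-values were not adjusted. The vehicle share of Dhx58 rests on 7 counts in all at 2 h and 3 at 14 h. These permutations exchanged libraries freely and did not use the replicate numbers as pairs. MDA5 and LGP2 thus took a larger part of these footprints at 14 h of IFN-β, though RIG-I was still the largest.

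Receptors were also set against the adaptors through which they signal. Footprints per kb of Ddx58 and Ifih1 together were 0.232 times those of Mavs with vehicle and 5.05 times with IFN-β at 2 h, and 0.158 and 13.3 times at 14 h. The ratio of Tlr3 to its adaptor gene Ticam1 was 1.38 and 5.48 at 2 h and 2.09 and 19.4 at 14 h. The ratio of Myd88 to Mavs, which are both adaptors, was 0.278 and 1.46 at 2 h and 0.158 and 1.27 at 14 h. Each of these 6 contrasts had all IFN-β libraries above all vehicle libraries (two-sided exact permutation without pairs, p = 0.0286). Footprints per kb of Ddx58 and Ifih1 together thus outnumbered those of Mavs with IFN-β and were outnumbered by them with vehicle.

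**Figure D4:**
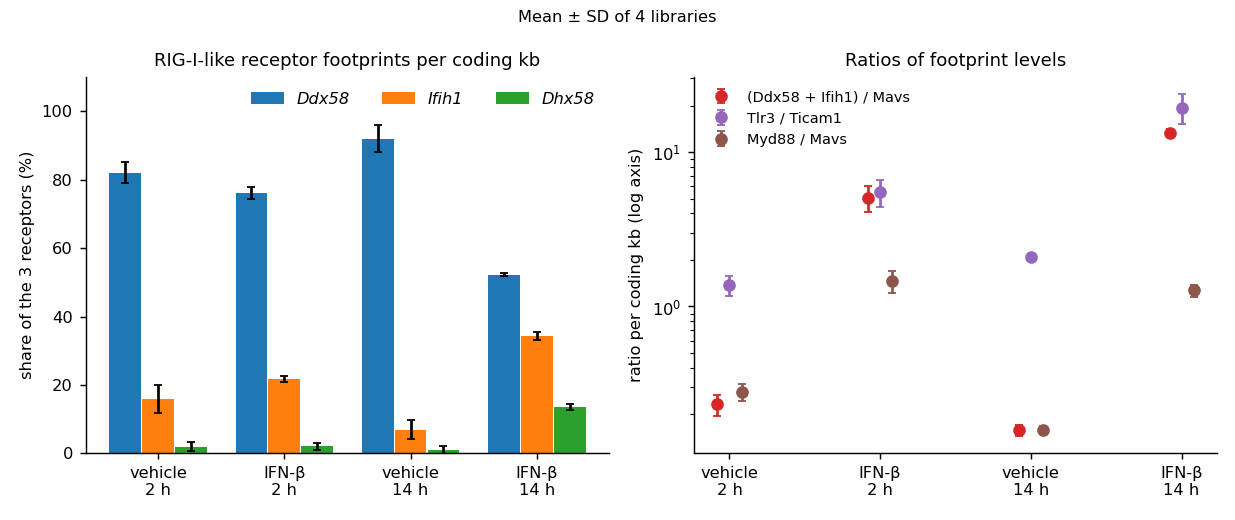
Left, share of Ddx58, Ifih1 and Dhx58 in the summed footprints per coding kb of these 3 receptors. Right, ratios of footprint levels per coding kb on a log axis. Both are mean ± SD of 4 libraries, and the share of Ddx58 goes from 92.0% with vehicle to 52.2% with IFN-β at 14 h.

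The genes whose footprints varied most like each of the 7 were sought among 12508 genes. The measure was the root mean square difference of log2 of CPM plus 0.5 over the 16 libraries, after each profile was centred. The points share 2 experiments and 1 treatment. Ddx58 was near Ifit2 (0.15) and Parp9 (0.30), while its own values spanned 5.88. Ifih1 was nearest to Xaf1, Psmb8 and Irf7 (0.41 to 0.54), Dhx58 to Ifi35, Oas2 and Zbp1 (0.38 to 0.43) and Ddx60 to F830016B08Rik, Samd9l and Oas1b (0.37 to 0.42). Tlr3 was nearest to 9930111J21Rik2, Gm5431 and Plac8 (0.25 to 0.31), and Myd88 to Csf1, Apobec3 and Batf2 (0.28 to 0.31). Mavs, whose values spanned 0.44 in all, was nearest to Med16, Ubxn1 and Mrps31 (0.083 to 0.086). Among the 7, Dhx58 and Ddx60 were the closest pair (0.68), and Tlr3 was closer to Myd88 (0.96) than to any other. Dhx58 and Ddx60 were below 0.5 CPM in every vehicle library, so there the added 0.5 sets most of both values. Their closeness is therefore in part a shared floor.

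The wider pathway was read from a list of 75 genes that work with these sensors. At 2 h, 58 were tested, and 11 rose (19.0%) and 1 fell (1.72%), beside 5.25% and 2.01% of all genes. With the replicate number as a block, 21 rose and 3 fell, while the calls over all genes went from 878 to 3538, and with total counts in place of TMM 9 rose and 3 fell. At 14 h, 57 were tested, and 29 rose (50.9%) and 11 fell (19.3%), beside 26.2% and 26.3% of all genes. Irf7 at both times, and Unc93b1 and Zbp1 at 14 h, had fewer than 10 counts in every vehicle library. They entered the tests through the IFN-β libraries alone, and Rnf125 at 2 h had 10 counts in only 1 vehicle library. The counts of genes that rose therefore describe the list and are no support. The median log2 fold change of the list was 0.08 at 2 h and 0.26 at 14 h, and that of all genes tested was -0.02 and 0.00. Of 54 genes tested at both times, 9 rose at 2 h and 27 at 14 h, with 8 in common. Of the 5 type I interferon genes of the list, Ifnb1 among them, none had the counts to be tested at either time.

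The counts by role are small and are to be read against these shares of all genes. Among them, 4 of 15 cofactors of the sensors rose at 2 h, and 6 rose and 7 fell at 14 h. Trim25, a ubiquitin ligase that activates RIG-I, rose by 3.77 (SE 0.23, adjusted p = 7.77e-06) at 2 h and by 5.33 (SE 0.12, adjusted p = 4.98e-13) at 14 h. Eif2ak2, which encodes the RNA-activated kinase PKR, rose by 2.51 and 3.69 and reached 339 ± 11.8 CPM at 14 h. Zc3hav1, which encodes the antiviral protein ZAP, rose by 2.21 and 3.63. The 4 genes of the list that fell most at 14 h, leaving out genes whose mean was under 50 counts, were all of this class and encode helicases and an RNA-binding protein. Ddx21 fell by 0.62, G3bp1 by 0.62, Dhx15 by 0.50 and Dhx9 by 0.49 on the log2 scale (SE 0.05 to 0.10), and none of them was called at 2 h.

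Of the partners that carry the signal of MAVS, 2 of 11 rose at 2 h, and 6 rose and 2 fell at 14 h. Ripk1, a kinase of that complex, rose by 1.31 (SE 0.07) at 2 h and by 0.31 (SE 0.07) at 14 h. Of the kinases and transcription factors further down, 2 of 10 rose at 2 h and 7 of 10 at 14 h. Irf7, the transcription factor that amplifies interferon genes, went from 0.41 ± 0.16 to 35.8 ± 14.2 CPM at 2 h (6.37, adjusted p = 1.26e-05). At 14 h it went from 0.21 ± 0.12 to 175 ± 66.4 CPM (9.59, adjusted p = 2.82e-09, against 7 vehicle counts). Of the Toll-like receptor arm 9 of 16 genes were tested at 2 h, with 2 higher and 1 lower, and 7 at 14 h, with 5 higher. Cd14, a co-receptor of this arm, went from 1.33 ± 0.66 to 21.8 ± 12.0 CPM at 2 h (4.02, adjusted p = 0.000556) and held 0 to 4 counts per library at 14 h with either treatment.

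Of the inhibitors of the pathway, 1 of 11 rose at 2 h, and 3 rose (27.3%) and 2 fell (18.2%) at 14 h, where the share of all genes higher was 26.2%. Nlrx1, a mitochondrial protein described as a brake on MAVS, stood at -0.91 at 2 h (adjusted p = 0.0604) and rose by 0.35 (adjusted p = 0.00411) at 14 h. Of the 4 genes of DNA sensing, Tmem173, which encodes STING, stood at 0.66 at 2 h (adjusted p = 0.583) and rose by 0.91 at 14 h (adjusted p = 0.000103). Mb21d1, which encodes the DNA sensor cGAS, stood at 0.88 (adjusted p = 0.0883) and 0.02 (adjusted p = 0.954), and these 2 genes were chosen after their values were seen. Zbp1, a sensor of left-handed nucleic acid, had no footprint in any vehicle library, and set against a floor of 3 counts for the whole group it was at least 21.3-fold higher at 2 h and at least 1001-fold higher at 14 h.

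**Figure D5:**
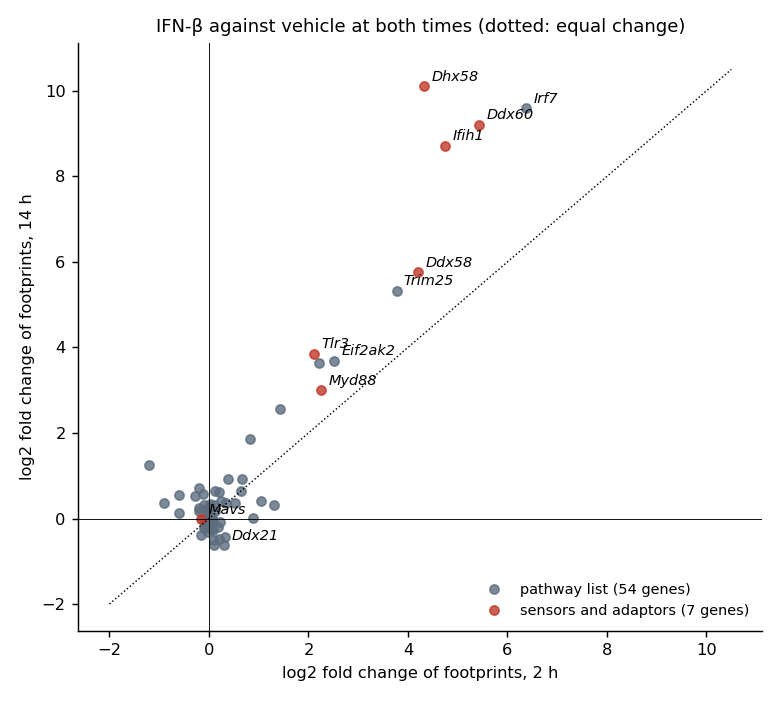
Log2 fold change of footprints at 2 h (horizontal) and 14 h (vertical) for the 7 genes (red) and the 54 genes of the pathway list tested at both times (grey), with Dhx58 at 14 h as the ratio of summed counts. The 6 called genes lie above the dotted line of equal change, near Irf7, Trim25 and Eif2ak2, and most of the list lies near 0.

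The total RNA gave little on the 7 genes. Their counts were 0 to 41 per library at 2 h and at most 11 at 14 h. Over the genes tested in footprints, the median count per library was 240 in footprints and 16 in total RNA at 2 h, and 253 and 5.88 at 14 h. Ddx58 and Ddx60 alone could be tested, at 2 h, beside 0.722% of 11639 genes called higher. Vehicle libraries held 2 to 10 counts of Ddx58 and IFN-β libraries 15 to 41, and its change of 1.75 (SE 0.47, adjusted p = 0.173) was not called, while it was with DESeq2 (adjusted p = 0.0446) and in edgeR with total counts in place of TMM (2.10, adjusted p = 0.0435). Ddx60 gave 0.54 (SE 0.43, adjusted p = 0.975). The edgeR count of 0 thus stands beside 1 of 2 genes at an unadjusted p under 0.05. At 14 h none of the 7 had the counts to be tested, beside 3.47% of 7520 genes called higher. Tlr3 had 3 counts with vehicle and 42 with IFN-β at 2 h, a ratio of 12.2 (95% counting interval 3.91 to 61.7), and Ifih1 2 and 14, a ratio of 6.11 (1.40 to 55.4).

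The exons of Dhx58 and Myd88 overlap genes on the opposite strand, by 141 and 290 bases, and there the total RNA counts lay on the other gene. No base of these overlaps is coding in both genes. Gm45542, which overlaps the exons of Tlr3 by 381 bases, was not analysed here. Myd88 had 0 counts in all 16 total RNA libraries. Acaa1a, which encodes a peroxisomal thiolase and runs opposite to it, held between 132 and 301 counts in the vehicle libraries of 2 h and between 367 and 571 in those with IFN-β (log2 fold change 1.11, adjusted p = 0.0683). At 14 h it had 22 to 72 and 163 to 269 counts (1.87, adjusted p = 6.68e-05). Its footprints changed by 0.10 (adjusted p = 0.785) and 0.82 (adjusted p = 1.72e-06). Dhx58os, opposite to Dhx58, held between 11 and 22 total RNA counts in the vehicle libraries of 2 h and between 80 and 123 in those with IFN-β (2.53, adjusted p = 0.000676). At 14 h it had 1 to 6 and 271 to 816 counts (6.64, adjusted p = 2.44e-09), while Dhx58 itself had at most 10. The sources used here do not state the strand setting of the counting, and to which strand the reads at these 2 places belong was not tested.

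Translational efficiency (TE), the change of footprints beyond that of total RNA, was fitted as an interaction and called at an adjusted p under 0.1. At 2 h Ddx58 (2.47, SE 0.52, adjusted p = 0.0291) and Ddx60 (4.88, SE 0.70, adjusted p = 0.000469) were called, beside 0.581% of 14115 genes called higher. At 14 h the same 2 were called, Ddx58 at 5.37 (SE 0.45, adjusted p = 1.38e-08) and Ddx60 at 8.96 (SE 0.98, adjusted p = 5.44e-07), beside 4.49% of 13447 genes. Ddx60 entered the test at 14 h through its IFN-β footprint libraries alone, and its value rests on 4 vehicle footprint counts. The count of 2 at 14 h therefore describes the genes and is no support. The call on Ddx58 at 2 h was lost without vehicle replicate 3 (2.44, adjusted p = 0.125) or 5 (2.05, adjusted p = 0.253). For Mavs the TE change at 2 h was -0.84 (adjusted p = 0.873). In the remaining cases at least 1 group had 3 or fewer total RNA counts, so that no TE is given for Ifih1, Dhx58, Tlr3 or Myd88 at either time, nor for Mavs at 14 h. At most 41 total RNA counts per library stand behind these values, and the doubt on the strand of the total RNA counting holds for them too.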

How the data were processed

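Ribo-Seq and total RNA of NSCs were analysed from the raw counts per gene deposited by the authors, which are whole numbers without normalization. The authors trimmed the reads with Trim Galore 0.4.4, mapped them with Bowtie 0.12.7 to the mm10 (GRCm38) transcriptome, removed duplicates and counted footprints in coding sequences and total RNA over whole genes. The strand setting of the counting is not given in the sources used here. Gene symbols, positions and coding lengths came from GENCODE M21, which held 22205 of 23035 footprint identifiers and 37607 of 39017 total RNA identifiers. Promoter sequences came from RefSeq.

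A gene was fitted when 4 or more libraries of the comparison held 10 or more counts of it. Fits were made in R 4.3.3 with edgeR 4.0.16 (quasi-likelihood test, TMM, two-sided) and p-values were adjusted by Benjamini-Hochberg over all genes tested. Calls were made at 0.05, or at 0.1 for TE. Alternatives used limma 3.58.1 and DESeq2 1.42.0, other scalings and filters, the replicate number as a block, and leaving out each library in turn. Python 3.11.15 with pandas 2.3.3, numpy 2.4.6, scipy 1.17.1 and matplotlib 3.10.9 did the rest. The fits were tested on simulated data. Cultures with the same replicate number deviated together in footprints (correlation across genes 0.192 to 0.418 at 14 h and 0.328 to 0.812 at 2 h) and not in total RNA (-0.477 to 0.39), so the numbers were taken to pair the footprint libraries. Footprints of different numbers gave -0.375 to 0.112 at 14 h and -0.629 to 0.324 at 2 h. At 2 h the highest of these was thus close to the lowest of the same number. The pairing comes from the data and not from a label. The main fits and the permutations left it out, and only the fits with the replicate number as a block used it.

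The 7 genes and the lists were chosen with earlier results of these data known. Besides the 7 genes, the text names, of the 75 pathway genes, the 4 called genes with the largest rise and the 4 with the largest fall in each footprint comparison among those with a mean of at least 50 counts per library, the 3 genes nearest in pattern to each of the 7 (of which 1 is not reported here), cell type markers, adaptor genes and genes on the opposite strand. Low counts limit precision. The intervals of summed counts and the floors cover counting error only. The SE and intervals of edgeR were derived from its coefficient and F statistic, which uses the spread between libraries. They are too narrow for large changes on few counts. For Dhx58 at 14 h that interval was 788- to 1498-fold, inside the counting interval of 378 to 5364. The same caution holds for Ifih1 and Ddx60 at 14 h.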

Additional observations from a re-analysis of the deposited data

Results flagged for a closer look

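By the interaction test of edgeR over 16 footprint libraries, the response to IFN-β differed between 2 h and 14 h for 6 of the 7 genes. That count is no support, as Dhx58 and Ddx60 entered the test through IFN-β libraries alone. The response also differed for 29 of 61 genes of the pathway list (20 higher and 9 lower at 14 h). Genes of the list such as Irf7 and Zbp1 entered in the same way, so this count is no support either. Over all 12508 genes, 15.4% were higher and 15.5% lower at 14 h. Of the list, the 4 largest in each direction with a mean of at least 50 counts per library are given. Among the sensors and adaptors the log2 response at 14 h exceeded that at 2 h by 1.57 for Ddx58, 3.99 for Ifih1, 5.53 for Dhx58, 3.80 for Ddx60, 1.75 for Tlr3 and 0.75 for Myd88. Of the pathway list it was higher at 14 h by 1.57 for Trim25 (adjusted p = 0.000828), 1.42 for Zc3hav1 (adjusted p = 2.44e-05), 1.27 for Nlrx1 (adjusted p = 0.00198) and 1.18 for Eif2ak2 (adjusted p = 9.14e-06). It was lower at 14 h for Ripk1 (-0.99, adjusted p = 1.01e-06), Ddx21 (-0.92, adjusted p = 0.0253), Ddx3x, a helicase that assists MAVS signalling (-0.74, adjusted p = 0.0262), and G3bp1 (-0.72, adjusted p = 0.0234). No library stood apart by Dixon's criterion for 4 samples in any of 28 sets of 4 footprint values of the 7 genes, where chance gives about 1 in 20.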

How the results depend on the processing

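The calls on footprints of the 6 genes held in all 178 values computed under the alternatives at 2 h and 14 h, with Dhx58 and Ddx60 not tested at 2 h where a mean of 50 counts was required. Of 161 values of the difference between times, 12 lost a call, all by leaving out a library (11 for Myd88 and 1 for Ddx60), and the number of genes called then ranged from 4 to 6. The direction of Mavs at 14 h turned without IFN-β replicate 2 (0.0149), vehicle replicate 2 (0.00171) or vehicle replicate 4 (0.0429), and leaving out a library moved it from -0.0606 to 0.0429, with an adjusted p of 0.535 to 0.99. With the replicate block, 24 genes of the pathway list were called at 2 h in place of 12 (3538 in place of 878 over all genes), and the number was 17 with DESeq2, 8 with a mean of at least 50 counts and 8 to 12 with a library left out. At 14 h it was 37 to 43. The block changed no other call on the 7 genes. In total RNA at 2 h 1 gene, in place of 0, was called with total counts alone or with DESeq2 (Ddx58) or without the filter (Tlr3). In TE at 2 h, in place of 2 genes, 1 was called with total counts alone, 0 with a mean of at least 50 counts, which none of the 7 reached, 4 with limma-voom and 1 to 2 with a library left out. In TE at 14 h it was 0 with that mean, 4 with DESeq2 and 6 with limma-voom. The cause of these differences was not tested. Low counts limit what the total RNA shows of the 7 genes, and its strand setting is unknown. Totals of the libraries at 2 h were 3992402 to 7877753 counts in total RNA and 4956144 to 9361609 in footprints. The cause of the low total RNA counts was not tested. In footprints the vehicle counts of Ifih1, Dhx58 and Ddx60 are a limit.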
